A study of Oryza sativa with 4 samples.

Results

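The SAUR (small auxin up RNA) loci of rice were taken as the 36 loci, of 57995 in the deposited tables, whose symbol begins with saur and a number in either case. They carry 35 distinct names, because saur35 is given to a pair of loci on chromosome 8. Of the 57995 loci, 617 carry any symbol, so SAUR genes without one would be missed here and counted among other loci. Statements below on the SAUR family cover these 36 loci alone. The leaves came from seedlings of Oryza sativa, genotype Dongjin, 7 days old and kept at 23 °C with 16 h of light and 8 h of dark. The 2 control libraries are those titled Control, taken here as having received no CysNO, and the 2 CysNO libraries came from seedlings irrigated with 5 mM CysNO (S-nitrosocysteine, a small S-nitrosothiol that releases nitric oxide and passes it to protein cysteines). The protocol of every sample ends by naming a buffer of 1 mM HCl, so which plants received it is read from the titles alone. No library received cysteine without nitric oxide, and the sources used here do not give the time from irrigation to harvest. The protocol speaks of leaves in triplicate, whereas 2 libraries a group were analysed here. Since the labels do not tie them to different plants, every p-value reflects the spread among these libraries alone, and that spread could be technical.

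SAUR genes were first found as short transcripts that accumulate within minutes of auxin treatment. In Arabidopsis, several SAUR proteins bind and inhibit type 2C protein phosphatases of the D clade. This keeps plasma membrane proton pumps active and lets cells expand. In rice, SAUR39 and SAUR45 have been described as lowering auxin synthesis and transport when overproduced, and of these only saur45 is among the 36 loci. For most of the other rice members no individual role is assigned here, so the loci are ordered below by chromosome position and by how they moved. The question put to the data was which of them respond in leaf to the nitric oxide donor, and whether the loci beside them move too.

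The files hold FPKM (fragments scaled to transcript length and to the mapped fragments of the library), and no read counts. Total FPKM lay between 687469 and 732401 a library. The depth itself is unknown. Its ratio to control 1, read from 594 loci under 0.3 FPKM, was 1.07 in control 2, 0.825 in CysNO 1 and 1.08 in CysNO 2. None of the nuclear leaf genes chosen as markers (RBCS, RCA, CAB and LHC symbols) carries a symbol in the files, so the leaf label was not checked against them. Of 19 photosystem genes encoded in the chloroplast, 16 have a listed 0 in each of the 4 libraries. The libraries were made from poly(A) RNA, and how these zeros arose was not tested. A 0 here may stand for missing transcript or for a failed estimate. OSH1, a homeobox gene of the shoot meristem, was at 3.48 and 6.68 FPKM in the controls and at 2.59 and 1.17 FPKM in CysNO. It did not pass the test (adjusted p = 0.214 by limma), and any part of meristem tissue in the SAUR results was not tested. In bulk leaf RNA, fewer cells of a type and less RNA per cell cannot be told apart.

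Of the 36 SAUR loci, 8 were listed at 0 in every library. These were saur4, saur12, saur14, saur18, saur27, SAUR32 and both loci named saur35. Another 8 were above 0 in some library and too low to test, since the test took only loci that reached 1 FPKM in 2 or more of the 4 libraries. The highest value among them was 2.15 FPKM, for saur31 in control 2. The remaining 20 loci were tested. SAUR loci are short, with a median span of 646 bp against 2332 bp over all loci in the files. The tested members had a median span of 902 bp and the untested members one of 593 bp.

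**Figure D1:**
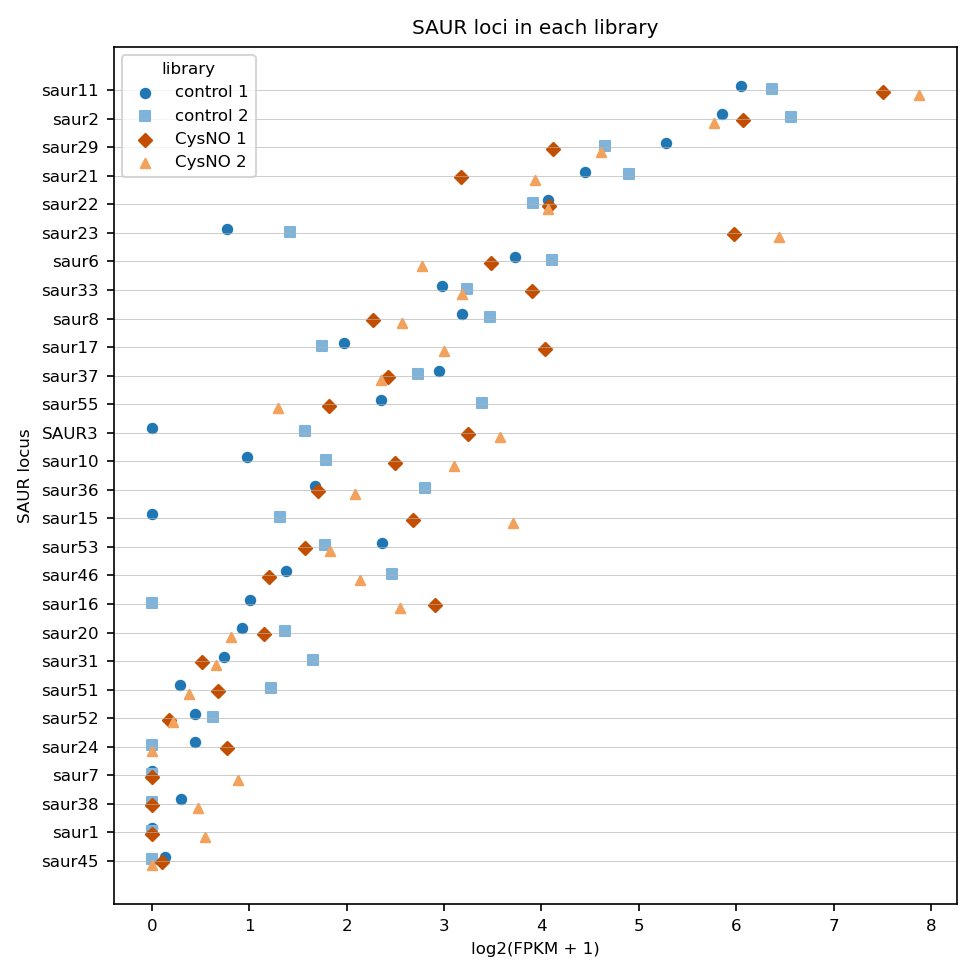
Level of the 28 SAUR loci above 0 in at least 1 library, as log2(FPKM + 1) on the x axis, with 1 symbol per library and loci ordered by their mean. saur23 moves from the low end in both controls to a level close to that of saur2 in both CysNO libraries, and saur11 is above both controls in both CysNO libraries.

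SAUR transcript in these leaves was dominated by a few loci. The FPKM of all 36 summed to 251 and 321 in the controls and to 433 and 506 in CysNO. saur11 and saur2 were the highest members in both controls. saur11 made up 26.02% and 25.5% of the sum in the controls and 41.7% and 46.2% in CysNO. saur2 went from 22.7% and 29.2% of the sum in the controls to 15.2% and 10.6% in CysNO, while its own level overlapped between the groups. saur23 went from 0.283% and 0.522% of the sum to 14.3% and 16.9%. The other 33 loci together stood at 128 and 144 FPKM in control and 124 and 133 FPKM in CysNO. This sum thus overlapped between the groups once saur2, saur11 and saur23, picked from these same levels, were set aside. It joins members that were higher in CysNO, such as saur17, with members that were lower, such as saur21.

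After CysNO, 5 of the 20 tested members rose and 0 fell (limma, adjusted p under 0.05 over all 21123 tested loci). The members that rose were saur23, SAUR3, saur15, saur16 and saur11. They are 25% of the tested members, where 3.27% of all tested loci were called higher and 0.956% were called lower. SAUR3, saur15, saur16 and saur23, 4 of these 5, reached 1 FPKM in only 1 control library, so they entered the test only because their CysNO values were high, and the 25% is no more than a description. Over all tested loci, 1614 had fewer than 2 control libraries at 1 FPKM, and 135 of these were called higher. The same class held 6 SAUR loci, 4 of them called higher. At an unadjusted limma p under 0.05, 7 members were higher and 4 were lower, where 9.66% and 8.39% of all tested loci were. Of those 7, SAUR3, saur10, saur15, saur16 and saur23 entered the test only through their CysNO values, so that count is likewise a description. The log2 fold change was above 0 in 9 of the 20 members (45%), a share near the 48.9% of all tested loci, and below 0 in 11. Its median was -0.20 and its mean 0.55. Over all tested loci the median was -0.01. All fold changes here are differences of log2(FPKM + 1), which understate the change of low loci. Without either CysNO library 0 SAUR loci were called, and over all loci 0 were called without CysNO 1 and 1 without CysNO 2. With median centring or quantile normalization only saur23 of the 5 was called. SAUR3, saur15 and saur16, each with a control library at 0, did not pass with a pseudocount of 0.1, where their log2 fold changes were 4.42, 4.36 and 4.10.

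**Figure D2:**
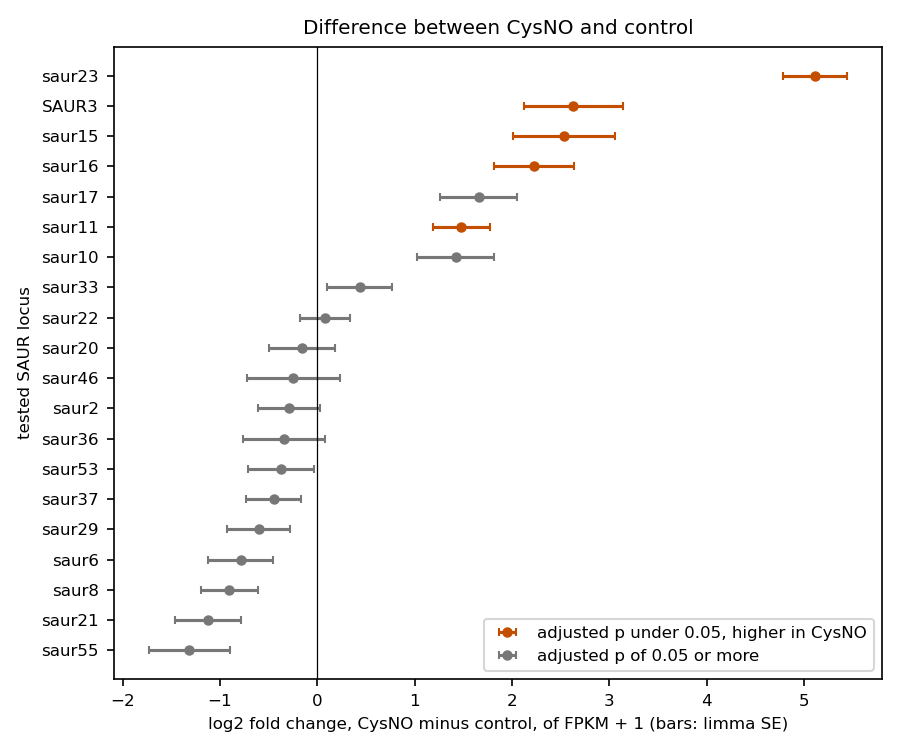
Log2 fold change of the 20 tested SAUR loci, CysNO minus control, on the log2(FPKM + 1) scale, with limma standard errors as bars and called loci in orange. The 5 called loci lie between 1.48 and 5.11, saur17 lies among them at 1.66 and saur10 just under them at 1.42, both without passing the threshold.

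saur23 (LOC_Os04g56690, chromosome 4, bases 33619219 to 33620361, minus strand) changed the most of the family. It stood at 0.711 and 1.68 FPKM in the controls and at 62.1 and 85.6 FPKM in CysNO. Both CysNO libraries were far above both controls. The means were 1.19 ± 0.683 and 73.8 ± 16.6 FPKM (SD, n = 2 per group). Its log2 fold change was 5.11 ± 0.33 (SE, n = 2 per group; adjusted p = 0.00148 by limma), the 15th largest of all 21123 tested loci. Among those loci its level was at the 2.74th and 11.7th percentile in the controls and at the 89.8th and 93.1st in CysNO. The call was lost without CysNO 1 (adjusted p = 0.219 by limma) and without CysNO 2 (adjusted p = 0.196 by limma), where the log2 fold changes were 5.34 and 4.88, and also with no filter on low values (adjusted p = 0.0786 by limma).

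The nearest locus on one side of saur23 is another member, saur22 (LOC_Os04g56680), on the same strand and 13947 bp away with no locus between them. saur22 stood at 15.8 and 14.02 FPKM in the controls and at 15.9 and 15.7 FPKM in CysNO. Its libraries nearly coincided, with a log2 fold change of 0.08 and a 95% confidence interval of -0.52 to 0.68 (adjusted p = 0.928 by limma). The intervals of these adjacent genes do not overlap, since that of saur23 ran from 4.34 to 5.88. In the controls the level of saur22 was above that of saur23 in both libraries, and in CysNO it was below it in both. On the other side of saur23, at 3873 bp and on the same strand, LOC_Os04g56700 was at 6.56 and 12.4 FPKM in the controls and at 10.7 and 6.05 FPKM in CysNO (adjusted p = 0.914 by limma). Of the 14 tested loci other than SAUR members within 50 kb of saur23, 0 were called, and their log2 fold changes ran from -0.27 to 0.55.

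saur11 (LOC_Os02g42990, chromosome 2, bases 25873032 to 25874011, plus strand) had the highest mean level of the family in CysNO, and was second to saur2 in the controls by mean. It stood at 65.4 and 81.8 FPKM in the controls and at 181 and 234 FPKM in CysNO. The groups did not overlap, and the lower CysNO library was above the higher control. The means were 73.6 ± 11.6 and 207 ± 37.3 FPKM (SD, n = 2 per group), a log2 fold change of 1.48 ± 0.29 (SE; adjusted p = 0.0368 by limma). The call was lost without control 1 (adjusted p = 0.135 by limma), with a log2 fold change of 1.32. Its nearest loci were at or near 0. LOC_Os02g42980 is listed at 0 in all 4 libraries, and LOC_Os02g43000 is listed at 0 in all but CysNO 1, where it reads 0.676 FPKM. Within 50 kb, 6 loci were tested and 0 called.

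SAUR3 (LOC_Os01g70050, chromosome 1, bases 40525548 to 40526069, minus strand) is listed at 0 in control 1 and was at 1.97 FPKM in control 2. In CysNO it stood at 8.51 and 10.9 FPKM, above both controls. Its log2 fold change was 2.63 ± 0.51 (SE, n = 2 per group; adjusted p = 0.035 by limma). It was 1.84 without control 1, the library at 0, and 3.41 without control 2, and it passed in both fits. One neighbour, LOC_Os01g70040, is listed at 0 in all 4 libraries. The other, LOC_Os01g70060, overlapped between the groups, at 7.59 and 6.59 FPKM in the controls and 9.22 and 7.31 FPKM in CysNO (adjusted p = 0.824 by limma). Of 10 tested loci within 50 kb of SAUR3, 0 were called.

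The SAUR loci of chromosome 3 lie together, and the 3 that were tested all had higher values in CysNO. saur14, saur15, saur16 and saur17 span 32.8 kb from base 25864226 to base 25897044. saur14, on the minus strand, is listed at 0 in every library, as are the pair of loci between it and saur15. saur15, saur16 and saur17 follow one another on the plus strand with no locus between them.

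saur15 (LOC_Os03g45830) is listed at 0 in control 1 and was at 1.495 FPKM in control 2, against 5.39 and 12.1 FPKM in CysNO. Its log2 fold change was 2.53 ± 0.53 (SE, n = 2 per group; adjusted p = 0.0438 by limma), and 1.87 without control 1, where the call was lost (adjusted p = 0.0745 by limma). saur16 (LOC_Os03g45850) was at 1.01 FPKM in control 1 and is listed at 0 in control 2, against 6.51 and 4.84 FPKM in CysNO. Here the library at 0 is the other control. Its log2 fold change was 2.22 ± 0.41 (SE, n = 2 per group; adjusted p = 0.0301 by limma), and it was 2.73 without control 1 and 1.72 without control 2, passing in both. saur17 (LOC_Os03g45860), with no library at 0, stood at 2.92 and 2.37 FPKM in the controls and at 15.4 and 6.98 FPKM in CysNO. Its groups did not overlap and its log2 fold change was 1.66 ± 0.39, but it did not pass (SE, n = 2 per group; adjusted p = 0.0666 by limma). saur15 and saur17 have the same span, 321 bp. The sources used here do not say how reads shared by similar neighbours were divided.

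The locus after saur17, LOC_Os03g45870, pointed the other way. It stood at 62.9 and 51.9 FPKM in the controls and at 19.7 and 27.9 FPKM in CysNO, a log2 fold change of -1.25 ± 0.28 that did not pass (SE, n = 2 per group; adjusted p = 0.0586 by limma). It lies 9315 bp from saur17 on the opposite strand. Of the 6 loci other than SAUR members tested within 50 kb of saur16, 0 were called.

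**Figure D3:**
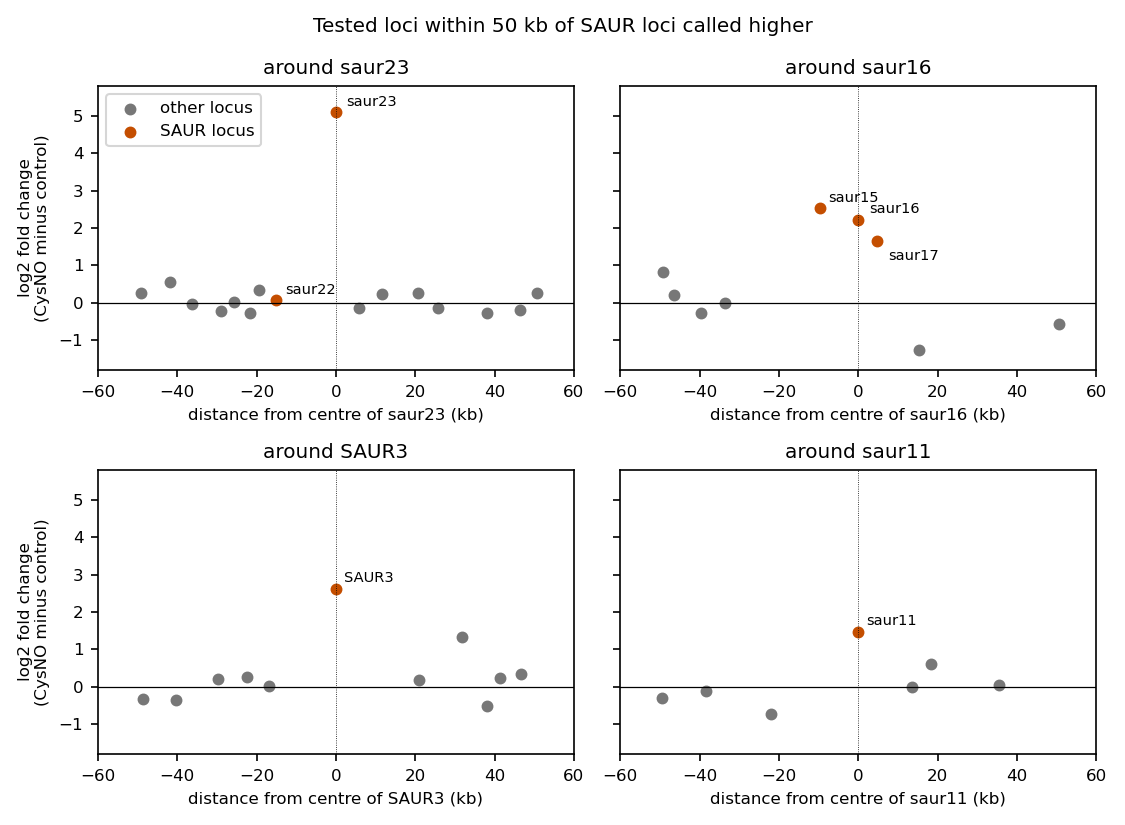
Log2 fold change (CysNO minus control, log2(FPKM + 1) scale) of every tested locus within 50 kb of saur23, saur16, SAUR3 and saur11, against the distance in kb between locus centres, with SAUR loci in orange. The other loci scatter around 0, saur22 at 0.08 lies among them, and saur15, saur16 and saur17 lie together at 1.66 to 2.53.

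The other tested members with values above 0 in log2 fold change, saur10, saur33 and saur22, did not pass. saur10 (LOC_Os02g30810, chromosome 2) stood at 0.965 and 2.45 FPKM in the controls and at 4.63 and 7.61 FPKM in CysNO. With control 1 under the filter of 1 FPKM, saur10 entered the test only through its CysNO values. Its groups did not overlap, and its log2 fold change was 1.42 ± 0.39 (SE, n = 2 per group; adjusted p = 0.102 by limma, and 0.0359 without control 2, with a log2 fold change of 1.82). LOC_Os02g30800, which ends 482 bp from saur10 on the opposite strand, was too low to test. saur33 (LOC_Os08g35110, chromosome 8) overlapped between the groups, at 6.90 and 8.41 FPKM in the controls and 13.9 and 8.08 FPKM in CysNO (adjusted p = 0.593 by limma).

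Of the 11 tested members with lower mean log2 values in CysNO, 0 passed, with limma adjusted p from 0.131 to 0.879. Over the 20 tested members the groups did not overlap in 13, or 65%, against 46.4% of all tested loci. Of the 11 lower ones they did not overlap in 6, saur6, saur8, saur21, saur29, saur37 and saur55. Over all tested loci 24.9% were lower without overlap and 21.5% higher without overlap, and 30% and 35% of the tested members were. Among the members higher without overlap, SAUR3, saur10, saur15, saur16 and saur23 entered the test only through their CysNO values. The 35% and the 65% are therefore no more than descriptions. saur55 (LOC_Os09g37500) had the most negative value. It stood at 4.10 and 9.49 FPKM in the controls and at 2.54 and 1.44 FPKM in CysNO. The controls differed more from each other than the nearer one did from CysNO. Its log2 fold change was -1.32 ± 0.42 (SE, n = 2 per group; adjusted p = 0.149 by limma), and without control 1 it was -1.84 and passed (0.0494).

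saur21 (LOC_Os04g52670, chromosome 4) stood at 20.9 and 28.9 FPKM in the controls and at 8.00 and 14.3 FPKM in CysNO. Every CysNO library was below every control, with a log2 fold change of -1.12 and a 95% confidence interval of -1.92 to -0.33 (adjusted p = 0.131 by limma). saur8 (LOC_Os02g24700) was at 8.07 and 10.1 FPKM in the controls and at 3.81 and 4.95 FPKM in CysNO, a log2 fold change of -0.90 (adjusted p = 0.159 by limma). saur6 (LOC_Os02g07110) was at 12.3 and 16.2 FPKM in the controls and at 10.2 and 5.86 FPKM in CysNO, a log2 fold change of -0.79 (adjusted p = 0.271 by limma). These 3 and saur55 are the 4 members that were lower at an unadjusted p under 0.05. saur29 (LOC_Os06g50040), the third most abundant member by mean control level, had 37.9 and 24.2 FPKM there and 16.4 and 23.4 FPKM in CysNO (adjusted p = 0.395 by limma). saur37 (LOC_Os09g26590) had 6.73 and 5.63 FPKM in the controls and 4.37 and 4.11 FPKM in CysNO (adjusted p = 0.494 by limma).

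saur2 (LOC_Os01g56240, chromosome 1) was at 57.0 and 93.7 FPKM in the controls and at 66.0 and 53.8 FPKM in CysNO. Its groups overlapped, with a log2 fold change of -0.29 and a 95% confidence interval of -1.04 to 0.46 (adjusted p = 0.746 by limma). The remaining tested members, saur20, saur36, saur46 and saur53, also overlapped between the groups. Their values ran from 0.759 FPKM in saur20 to 5.996 FPKM in saur36, and their limma adjusted p from 0.67 to 0.879.

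The largest group of SAUR loci lies on chromosome 9. saur45, saur46, saur52, saur53, saur51 and saur55 occur in that order within 23.9 kb, from base 21585632 to base 21609542, among 7 other loci without a symbol. None of the 3 members tested there (saur46, saur53 and saur55) was called, nor was the 1 other locus tested. That locus, LOC_Os09g37495 beside saur55, was at 1.05 and 2.63 FPKM in the controls and at 0.226 and 0.269 FPKM in CysNO (adjusted p = 0.168 by limma). saur45 stood at no more than 0.1004 FPKM in any library. saur52 was at 0.361 and 0.542 FPKM in the controls and at 0.128 and 0.158 FPKM in CysNO, too low to test. saur51 overlapped between the groups and reached 1.33 FPKM in control 2. On its other side saur55 faces LOC_Os09g37510 on the opposite strand with 66 bp between them, and that locus overlapped between the groups, at 5.34 and 6.34 FPKM in the controls and 11.5 and 5.65 FPKM in CysNO. Without a stated use of strand, reads that run past either end there cannot be assigned to one of them.

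In the other groups of neighbouring SAUR loci, saur37 was the only member tested. On chromosome 8, saur31 and SAUR32 lie 5521 bp apart on the same strand. saur31 was at 0.668 and 2.15 FPKM in the controls and at 0.424 and 0.583 FPKM in CysNO, below both controls, and SAUR32 is listed at 0. The loci named saur35 (LOC_Os08g42198 and LOC_Os08g42277) lie 38.9 kb from end to end on chromosome 8. They have the same span of 622 bp, the same strand and the same distance of 430 bp to the locus on one side, and both are listed at 0 in every library. On chromosome 9, saur38, in a group with saur37, was above 0 in control 1, at 0.226 FPKM, and in CysNO 2, at 0.386 FPKM. The remaining low members were saur1 and saur7, each above 0 in CysNO 2 alone at 0.462 and 0.845 FPKM, and saur24, above 0 in replicate 1 of each group at 0.36 and 0.71 FPKM. saur24 ends 40 bp from LOC_Os06g04600 on the opposite strand.

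Of the 36 loci with a saur symbol, 18 lie in 6 groups with successive starts at most 50 kb apart, and 18 lie alone. No other locus overlaps a SAUR locus in the files. The nearest loci on either side that are not SAUR members number 56, of which 18 are listed at 0 in all 4 libraries and 26 were tested. Of those 26, 1 fell and 0 rose, or 3.85%, where 4.23% of all tested loci were called in either direction. Their log2 fold changes ran from -2.03 to 1.13, with a median of 0.15. The highest was that of LOC_Os01g56235 beside saur2, which did not pass (adjusted p = 0.0985 by limma). The neighbour that fell was LOC_Os09g26620, 8640 bp from saur38 and on the opposite strand. It stood at 174 and 68.1 FPKM in the controls and at 24.1 and 28.0 FPKM in CysNO, a log2 fold change of -2.03 ± 0.43 (SE, n = 2 per group; adjusted p = 0.0473 by limma). The call was lost without control 1, where the log2 fold change was -1.36, and without either CysNO library. It was also lost with median centring, quantile normalization, a pseudocount of 0.1, no filter or no trend. In 15 pairs of a tested member and a tested nearest locus without a saur symbol, 4 had the same sign of log2 fold change. Some of these neighbours may be SAUR genes without a symbol, and no share over other adjacent loci is given. Within 50 kb of the tested members, 125 other loci were tested and 3 called, or 2.4%, of which 2 were higher and 1 lower. Within 50 kb of the 5 members that rose, 36 were tested and 0 called.

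Replicates of a group also differed in these genes. In 14 of the 20 tested members the value was higher in control 2 than in control 1, with a median log2 difference of 0.41, whereas 37.5% of all tested loci were higher in control 2, with a median of -0.12. In CysNO, 11 of the 20 were higher in CysNO 2 than in CysNO 1, whereas 39.4% of all tested loci were. The median difference was 0.28 against -0.12 over all tested loci. The difference between the controls in saur46, saur55 and saur36, from 1.59, 4.10 and 2.19 FPKM in control 1 to 4.51, 9.49 and 5.996 FPKM in control 2, was larger on the log2(FPKM + 1) scale than the gap between the group means in saur46 and saur36. The calls changed with the control left out. Without control 1 the members that rose were saur16, saur23 and SAUR3 and saur55 was lower, and without control 2 saur10 rose beside all 5.

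**Figure D4:**
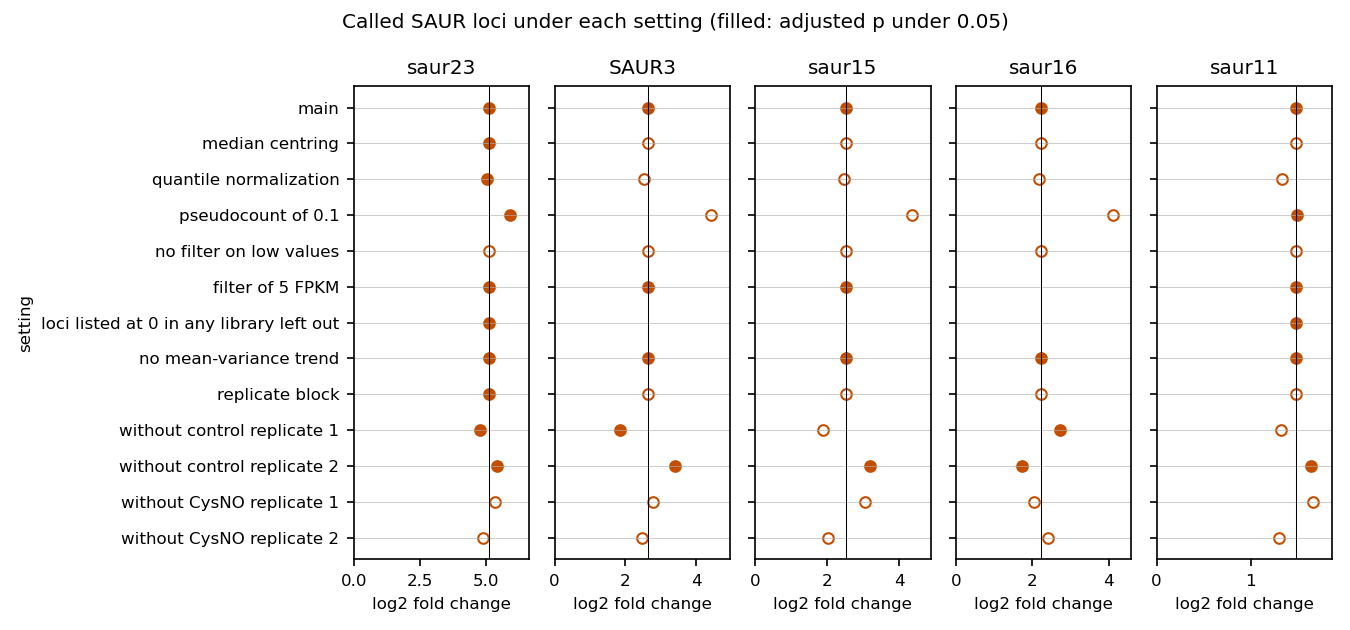
Log2 fold change of the 5 SAUR loci called higher (x axis, separate scale for each locus) under the reported setting and each other setting, filled where the limma adjusted p was under 0.05, with a vertical line at the reported value. saur23 is filled in 9 of the 12 other settings, and all 5 are open without either CysNO library.

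The other auxin families that carry symbols in the files were set beside the SAUR loci. Aux/IAA genes encode repressors of auxin response and are themselves induced by auxin. Of 30, 27 were tested, 2 rose (7.41%, against 3.27% of all tested loci) and 0 fell (limma), with a median log2 fold change of 0.23. iaa9 was at 0.445 and 0.679 FPKM in the controls and at 16.7 and 7.38 FPKM in CysNO (adjusted p = 0.0116 by limma). iaa20 is listed at 0 in both controls and was at 1.84 and 1.99 FPKM in CysNO (adjusted p = 0.0398 by limma). As iaa9 and iaa20 stood under 1 FPKM in both controls, they entered the test only through their CysNO values. The 7.41% is therefore no more than a description. The call of iaa9 was lost with no filter (adjusted p = 0.129 by limma) and without CysNO 1 or CysNO 2 (0.249 and 0.196). It was also lost with a replicate block (0.0727). The call of iaa20 held in 1 of the 10 other settings that could test it, the fit with no trend, and was lost without any 1 of the 4 libraries (adjusted p from 0.0505 to 0.296 by limma). The GH3 family includes enzymes that join amino acids to auxin, and of its 13 loci 9 were tested, 2 rose (22.2%, against the same 3.27%) and 0 fell (limma), with a median of 0.19.

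gh3.8 was at 5.86 and 11.4 FPKM in the controls and at 73.4 and 40.01 FPKM in CysNO (adjusted p = 0.0168 by limma). gh3.5 was at 17.7 and 19.9 FPKM in the controls and at 47.3 and 43.3 FPKM in CysNO (adjusted p = 0.042 by limma). Both calls were lost with median centring (adjusted p = 0.055 for gh3.8 and 0.066 for gh3.5 by limma), quantile normalization (0.053 and 0.0682), a replicate block (0.107 and 0.156), no filter and without either CysNO library. The call of gh3.5 held in 2 of 12 other settings, the filter of 5 FPKM and the fit without loci listed at 0, and was lost without any 1 of the 4 libraries. REH1, an auxin efflux carrier gene of the PIN family, was higher in both CysNO libraries, at 65.2 and 59.6 FPKM in the controls and 107 and 126 FPKM in CysNO, and did not pass (adjusted p = 0.125 by limma). The share called higher was 25% in the SAUR loci, 22.2% in the GH3 loci and 7.41% in the Aux/IAA loci. Of the called SAUR loci 4 of 5, and the called Aux/IAA loci, entered the test only through CysNO, so these shares are not alike. The highest log2 fold change was 5.11 in the SAUR loci, 2.96 in the Aux/IAA loci and 2.59 in the GH3 loci, and no difference between families was tested. No symbol in the files matched the patterns for auxin response factors, auxin receptors or auxin synthesis, nor those for expansins or cell cycle genes.

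**Figure D5:**
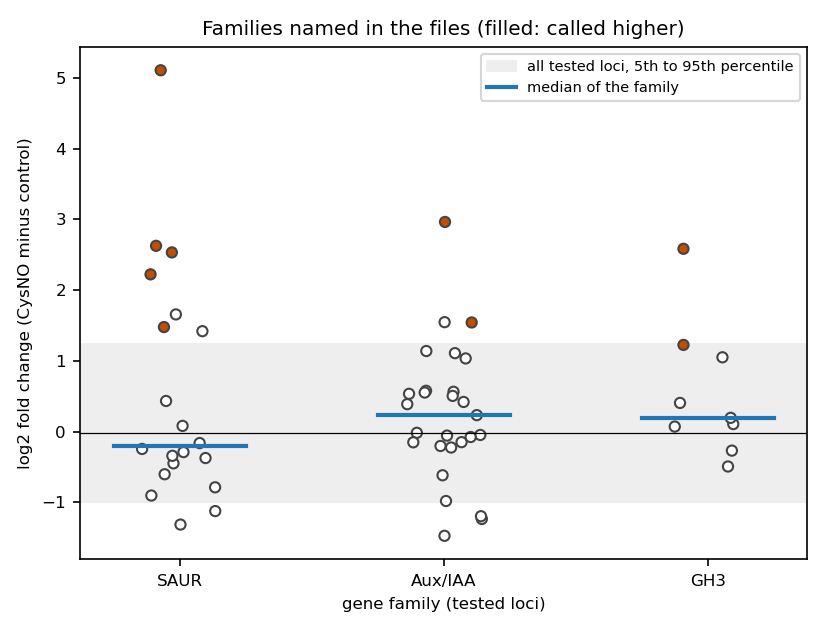
Log2 fold change (CysNO minus control, log2(FPKM + 1) scale) of the tested SAUR, Aux/IAA and GH3 loci, filled where called higher, with each family's median as a blue line and the 5th to 95th percentile of all tested loci, -0.9998 to 1.24, as a grey band. Tested loci number 20 in SAUR, 27 in Aux/IAA and 9 in GH3. Above the band lie 7 SAUR, 3 Aux/IAA and 1 GH3 loci, below it lie 2 SAUR, 3 Aux/IAA and 0 GH3 loci, and the medians are -0.20, 0.23 and 0.19. Of those above it, SAUR3, saur10, saur15, saur16, saur23 and the 3 Aux/IAA loci entered the test only through CysNO. The counts above the band are therefore no more than descriptions.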

How the data were processed

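Each library's table, as the authors deposited it, gives FPKM, symbol, chromosome, start, end and strand for every locus. Poly(A) RNA was read as 100 bp pairs, per the labels' protocols. Bowtie 0.12.2 and mm8, a mouse build, stand in the submitters' processing notes. The rice build, the counting program, any filter and the use of strand are not stated in those sources. Read counts were not used here, so there is no counting interval.

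The values were taken to log2(FPKM + 1), and CysNO was compared with control in limma 3.58.1 (R 4.3.3, mean-variance trend, two-sided, 2 residual and 5.36 prior degrees of freedom). The 21123 loci reaching 1 FPKM in 2 or more libraries entered, with Benjamini-Hochberg adjustment over all of them and a threshold of 0.05. The script was tested on simulated data. Permuting 2 against 2 libraries cannot give p below 0.333 and was not done. Every SAUR locus is described. Neighbours are the nearest loci by start, named with values where they or the SAUR locus beside them passed, and a few others were named after their values were seen. Up to 3 called members of each auxin list are named, and REH1 and OSH1 as the only matches of their lists. A root list, NAS1 to NAS3, had 3 tested loci with 0 called, and summed to 1526 and 765 FPKM in the controls and 362 and 1261 FPKM in CysNO. NAS1 and NAS2, which make up most of the sum, overlapped between the groups. NAS3 was higher in both CysNO libraries, at 7.00 and 2.94 FPKM in the controls and 13.4 and 12.2 FPKM in CysNO. The members and lists were chosen with earlier results of these data known. No sequence is printed.

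Other settings were median centring, quantile normalization, a pseudocount of 0.1, no filter, a filter of 5 FPKM, leaving out loci listed at 0, no trend, a replicate block and each library left out.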

Additional observations from a re-analysis of the deposited data

How the results depend on the processing

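Of the 20 tested SAUR loci, 15 kept the sign of their log2 fold change under each of the 12 other settings that could test them. Median centring shifts the log2 fold change of every locus alike, here by 0.0041, so it says nothing on single members. Quantile normalization moved no member by more than 0.15. The number of SAUR loci called higher, 5 as reported, was 1 with median centring, 1 with quantile normalization, 2 with a pseudocount of 0.1, 0 with no filter on low values, 2 with loci listed at 0 left out and 0 to 6 with a library left out. The number called lower, 0 as reported, was 0 to 1 with a library left out. Over all loci, 893 calls became 449 with median centring, 480 with quantile normalization, 2 with no filter and 0 to 1300 with a library left out. A lone library has no spread of its own and was assumed to vary like the other group. The median SAUR log2 fold change was 0.080 with a filter of 5 FPKM, which leaves 13 members, and -0.19 to 0.14 with a library left out. The neighbours called, 1 as reported, were 0 with median centring, quantile normalization, a pseudocount of 0.1, no filter or no trend, 2 with a filter of 5 FPKM, 2 with loci listed at 0 left out and 0 to 1 with a library left out. Signs turned only with a library left out, where log2 fold changes ran from -0.64 to 0.064 in saur2, -0.39 to 0.060 in saur20, -0.00068 to 0.16 in saur22, -0.91 to 0.22 in saur36, -0.79 to 0.30 in saur46 and -0.55 to 0.27 in LOC_Os04g56700. Beyond the left-out libraries and loci and the filters, the cause was not tested.

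The labels number the replicates but do not say that a number is shared. With a replicate block, 55 loci, 1 SAUR locus higher (saur23), 0 lower and 0 neighbours were called. Deviations of same-numbered libraries correlated at -0.19 over all tested loci, and with crossed numbers, added after seeing the data, 2831 loci, 7 SAUR loci higher, 2 lower and 5 neighbours were called. Depth is unknown, and the 16 members under the filter were not detectable as changed or unchanged here.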
